A study of Mus musculus with 4 samples.

Results

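Oxidative phosphorylation genes were followed across 4 dentate gyrus samples of handled control mice. The dentate gyrus is the part of the hippocampus built around granule cells. The genes were chosen by a rule on gene names. A gene belongs to the set if its probe set on the array carries a single gene symbol that begins with Nduf, Cox4 to Cox8, Atp5 or Uqcr, or is Sdha, Sdhb, Sdhc, Sdhd, Cycs or Cyc1. The rule uses no measured value, although it was written with earlier results of these data known. By it, 73 genes with 101 probe sets qualified, of 8251 genes with 10833 probe sets in all. The set holds 29 subunit genes of complex I, 2 of its assembly factors, 4 genes of complex II, 8 of complex III, 1 of cytochrome c, 15 of complex IV and 14 of ATP synthase.

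The mice were young male C57BL/6J animals of the standard inbred strain, with no engineered allele named. An experimenter handled them and gave no further treatment. Total RNA was prepared 1, 2, 4 or 6 h after the last shock of a separate experimental group, and each hour has 1 sample. The shocked mice were not analysed here, and the number of mice behind a sample is not given in the sources used here. Values are array intensities in arbitrary units and are given below in the order 1, 2, 4 and 6 h. A value at 1 hour has no replicate, and a mean ± SD runs over the 4 hours.

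Oxidative phosphorylation makes most of the ATP of neurons. Complex I takes electrons from NADH and complex II takes them from succinate. Ubiquinone carries them to complex III and cytochrome c carries them on to complex IV, which reduces oxygen. Complexes I, III and IV pump protons across the inner mitochondrial membrane, and ATP synthase uses the gradient. Most subunits are encoded in the nucleus, and a few core subunits of complexes I, III, IV and ATP synthase are encoded in mitochondrial DNA. None of the mitochondrially encoded genes was measured by a named probe set here. Hippocampal synapses depend on this supply, because ion pumping after synaptic activity consumes much of the ATP.

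The 4 arrays shared a trimmed mean of 500.3, and their medians lay between 185 and 213, with the highest at 4 h. The array control probe sets for Gapdh had a 3′ over 5′ ratio of 3.75, 6.33, 5.36 and 3.89, and those for beta-actin 3.03, 2.48, 2.59 and 2.54. All 5 granule cell markers with a probe set were past the filter on dim genes, among them Calb1 and Prox1. The tissue also held 6 of 6 measured astrocyte markers, 6 of 6 microglia markers and 5 of 7 interneuron markers past the filter. Markers of CA field pyramidal cells, another hippocampal cell type, passed in 3 of 3 (Wfs1, Rgs14 and Bok). So did 4 of 5 oligodendrocyte markers and 3 of 7 endothelial and mural cell markers. In such tissue RNA, fewer cells of a type and less RNA per cell cannot be told apart. The summed intensity of 4 measured choroid plexus markers was 2123, 4822, 5692 and 2988. Of this sum Igf2 gave 1849, 4402, 2955 and 2521, so the 2 h value was mostly Igf2. The choroid plexus gene Ttr gave 81.3, 234, 2408 and 191, and Kl and Folr1 did not pass the filter. The part of these differences between samples in the results below was not tested.

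A gene was compared across hours if its mean log2 intensity was at or above 7.41, an intensity of 170.4. This held for 65 of the 73 genes and for 4951 of the 8251 genes of the array. Where a gene had several probe sets, the brightest was used. The genes that did not pass are described with their complexes below. Intensities of different probe sets are not on a common scale, so levels of different genes are not ranked.

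Promoter sequences gave a first feature that the choice of genes did not use. In the RefSeq promoter table of build GRCm38.p6, which spans 250 bases before to 50 bases after each gene's start, 59 of the 73 genes had an entry. The motif GCGCA, any base, GCGC, bound by the nuclear respiratory factor NRF1, was searched on both strands. NRF1 is a transcription factor known for respiratory chain genes. It was found in 12 of the 59 genes (20.3%), in 5.19% of the 27025 genes in the table and in 12.9% of the 3954 other genes past the filter that had an entry. The following windows of 80 bases lie before the start of 4 of these genes, whose intensities range from steady to variable across the hours. Each is written 5′ to 3′ along the gene's strand, and capitals mark the motif.
Cox6a1, chr5:115349076-115349155, minus strand: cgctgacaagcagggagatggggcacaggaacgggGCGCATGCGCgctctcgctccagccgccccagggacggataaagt
Sdha, chr13:74350294-74350373, minus strand: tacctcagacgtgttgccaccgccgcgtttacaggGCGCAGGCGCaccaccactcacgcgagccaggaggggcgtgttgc
Sdhd, chr9:50603884-50603963, minus strand: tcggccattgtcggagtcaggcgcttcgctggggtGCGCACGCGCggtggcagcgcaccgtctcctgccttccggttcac
Atp5g2, chr15:102671048-102671127, minus strand: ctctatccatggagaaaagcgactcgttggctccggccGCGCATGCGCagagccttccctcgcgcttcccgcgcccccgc

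In these windows the motif begins 162 bases before the gene start in Cox6a1, 98 in Sdha, 79 in Sdhd and 42 in Atp5g2. The ETS factor motif CCGGAAG, which GABP proteins bind, was found in 16 of the 59 genes (27.1%), in 9.93% of all genes in the table and in 20.8% of the other genes past the filter. The YY1 motif AAGATGGCG was found in 5 genes (8.47%), against 1.64% and 3.89%. At least 1 of the 3 motifs was present in 29 of the 59 genes (49.2%), and in 33.2% of the other genes past the filter. The promoters of the set had a median GC content of 58.7%, against 61.3% for the other genes past the filter and 52.8% for the whole table. The 59 genes include some that did not pass the filter, unlike the other genes they are set against. Of those past it, 12 had the NRF1 motif and 39 did not. The ETS motif was in 15 and not in 36, and the YY1 motif in 4 and not in 47. A match is a run of letters and not a measured binding site.

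Across the hours, the set differed little between samples. The ratio of the highest to the lowest hour had a median of 1.34 over the 65 genes, with a middle 50% from 1.21 to 1.54, against a median of 1.47 over all 4951 genes. It exceeded 1.5 in 18 of the 65 genes, against 46.5% of all genes. It exceeded 2 in 4 of the 65 genes (6.15%), against 15% of all genes. The genes of this set are bright: their median intensity was 2797, and that of all genes was 597. At or above that intensity 0 of 33 genes of the set exceeded 2-fold, against 3.0% of all genes, and below it 4 of 32 (12.5%), against 16.2%. Among genes at or above 2797 the median ratio was 1.25 for 33 genes of the set and 1.3 for all 466 such genes, and below it 1.36 for 32 genes and 1.49 for all 4485. The gap to all genes was thus narrower among bright genes than over the whole array. Below 2797 the set was still the brighter, with a median intensity of 917 against 536, so those genes were not matched in intensity.

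**Figure D1:**
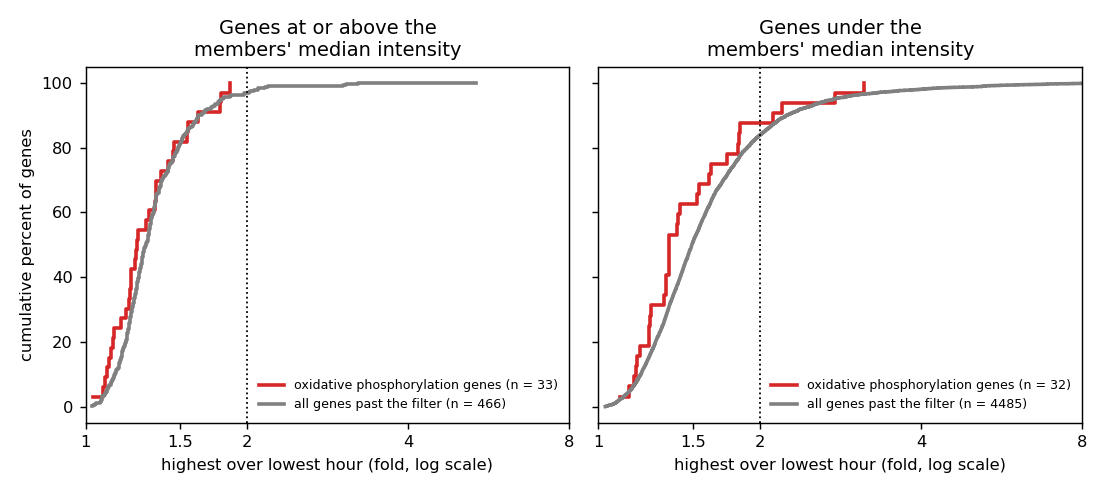
Cumulative percent of genes (vertical axis) by the ratio of the highest to the lowest hour (horizontal axis, log scale, drawn to 8-fold) for genes at or above (left) and under (right) an intensity of 2797. Red lines are oxidative phosphorylation genes, grey lines all genes past the filter and the dotted line marks 2-fold. The lines lie close on the left (medians 1.25 and 1.3) and further apart on the right (1.36 and 1.49). On the right the set is the brighter, with a median intensity of 917 against 536.

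No gene of the set followed the hour in the linear fit. With limma and Benjamini-Hochberg adjustment over 4951 genes, 0 of the 65 genes rose and 0 fell, as did 0% of all genes in each direction. At an unadjusted p under 0.05 the counts were 0 and 0 in the set, against 1.09% rising and 0.929% falling over all genes. Without the 6 h sample 6 of the 65 genes and 475 of all genes had such a p, from lines through 3 arrays. The smallest unadjusted limma p in the set was 0.139, for Atp5pb over n = 4 arrays, and its adjusted p was 0.99993. The slope was below 0 in 41 of the 65 genes, against 50.1% of all genes, and above 0 in 24, against 49.9%. The median slope was −0.013 log2 per h in the set, and −0.032 without the 1 h sample. These p values measure the scatter of single samples about a line, and the hour cannot be told apart from the individual array.

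Most genes of the set were highest at 1 or 2 h. Of the 65 genes, 27 (41.5%) were highest at 2 h, against 23.1% of all genes, and 20 were highest at 1 h, against 23.1%. A further 12 were highest at 4 h, against 31.4%, and 6 at 6 h, against 22.3%. The lowest value fell at 1 h in 16 genes, against 24.5% of all genes, at 2 h in 10 (23.2%), at 4 h in 22 (29.2%) and at 6 h in 17 (23.1%). The hours 1 and 2 h were the upper pair in 20 genes, against 13.7% of all genes, 2 and 4 h in 15, against 20.4%, and 4 and 6 h in 3, against 15.3%. At or above an intensity of 2797, 9 of 33 genes of the set were highest at 1 h, against 30.5% of all 466. Below it 11 of 32 were, against 22.3% of all 4485. With the mean of all probe sets, 16 of 63 genes were highest at 1 h (23.1% of all genes) and 22 at 2 h (22.2%). By that mean, 18 were highest at 4 h (33.2%) and 7 at 6 h (21.5%). These counts describe single arrays and carry no test.

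The differences in size were small. The log2 value of a gene at a given hour was set against its mean over the remaining 3. This deviation had a median over the set of 0.03, 0.11, −0.06 and −0.04, and over all genes of 0.0, 0.01, 0.02 and 0.01. The set therefore stood 0.1 above the median of all genes at 2 h and −0.08 from it at 4 h. Among genes at or above an intensity of 2797, 14 of 33 in the set were highest at 2 h, against 30% of all 466, and 12 of 33 were lowest at 4 h, against 37.3%. Among dimmer genes 13 of 32 were highest at 2 h, against 22.4% of all 4485. With each array scaled to its median, 42 genes of the set and 46.9% of all genes were lowest at 4 h. The 2 h array also had the highest Gapdh 3′ over 5′ ratio but the lowest beta-actin ratio, and the 4 h array had the highest Ttr intensity. The part of these array differences in the counts was not tested.

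**Figure D2:**
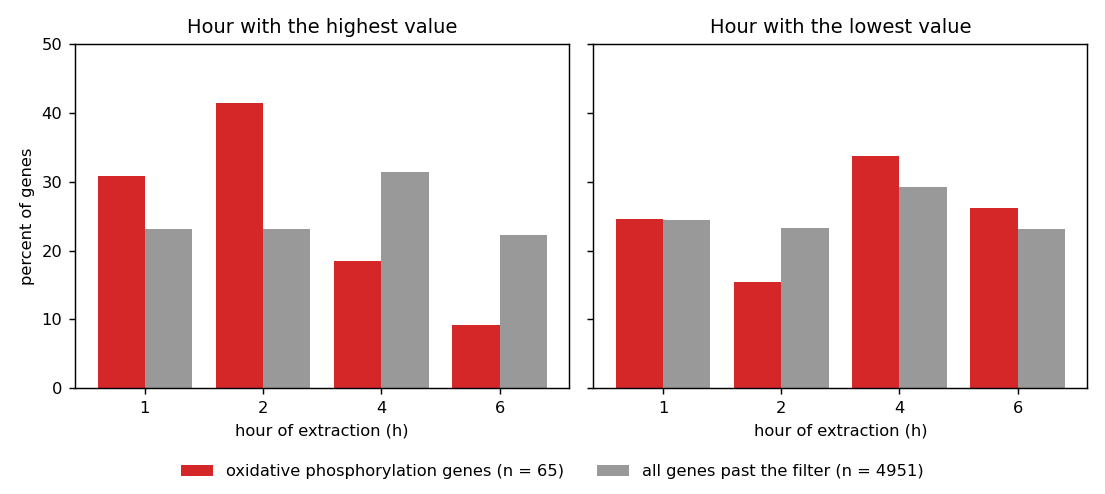
Percent of genes (vertical axis) with their highest (left) or lowest (right) value at each hour (horizontal axis, h), for the 65 oxidative phosphorylation genes (red bars) and all 4951 genes past the filter (grey bars). The tallest red bar is at 2 h on the left, at 41.5% beside 23.1% in grey.

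**Figure D3:**
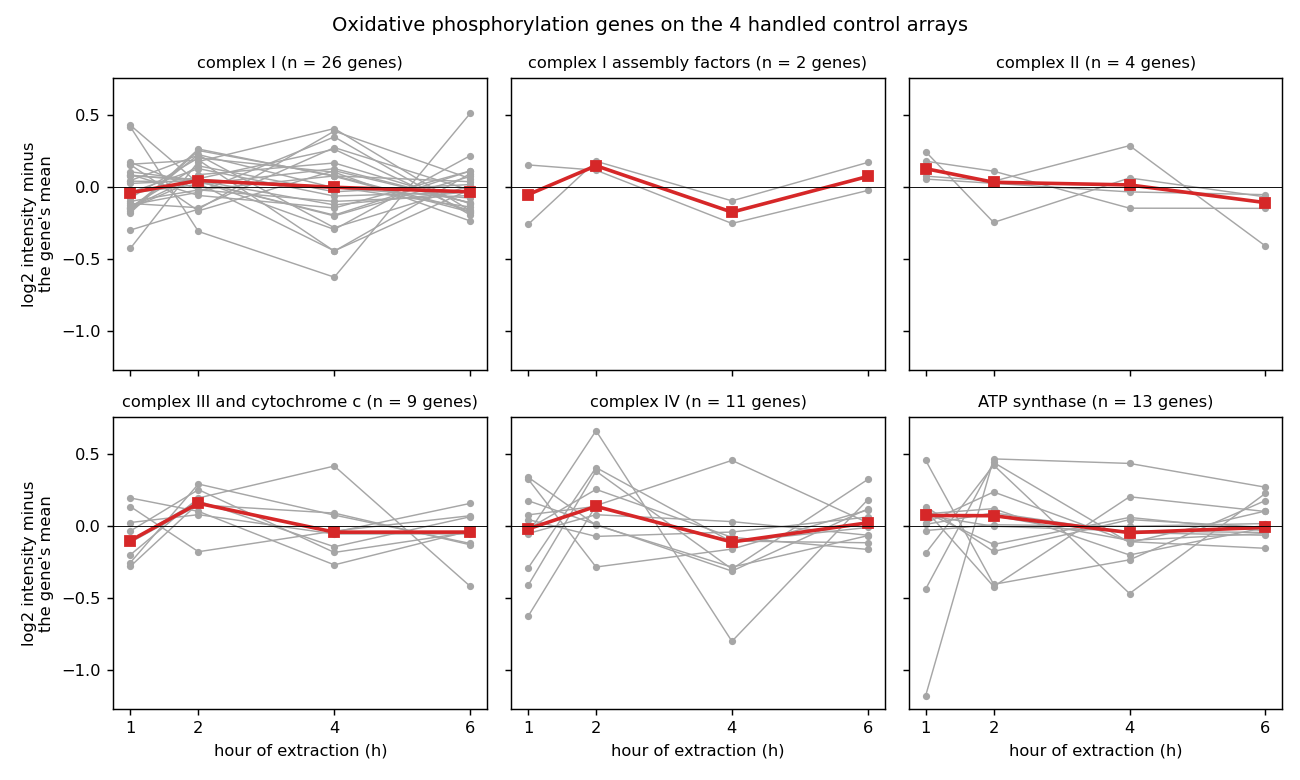
Log2 intensity minus the gene's own mean (vertical axis) by hour of extraction (horizontal axis, h), with a grey line for each gene past the filter and a red line for the median, by complex. Most lines stay near 0, and the line that drops furthest is Atp5pb at 1 h in the ATP synthase panel.

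The 4 genes past 2-fold belong to 3 complexes. Atp5pb, which encodes the b subunit of the peripheral stalk of ATP synthase, read 99, 310, 303 and 271, a 3.13-fold span. The 1 h sample was low and the other 3 lay close together. Cox4i1, the ubiquitous isoform of subunit 4 of complex IV, read 473, 776, 281 and 557, a 2.76-fold span between 2 and 4 h. Cox6b1, the ubiquitous form of subunit 6b, which sits on the intermembrane side of complex IV, read 194, 331, 412 and 305, a 2.12-fold span from 1 to 4 h. Ndufab1, the mitochondrial acyl carrier protein that is both a complex I subunit and a carrier in fatty acid synthesis, read 3017, 1823, 1462 and 3222. Its 1 and 6 h values were both over the 2 and 4 h values, with a 2.2-fold span.

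These 4 genes depended on single samples. Without the 4 h sample only Atp5pb of the 65 genes exceeded 2-fold, against 7.61% of all genes, and without the 1 h sample only Cox4i1 and Ndufab1 did, against 10.4%. Without the 2 h sample Cox4i1 dropped out (10.5% of all genes), and without the 6 h sample all 4 remained (10.7%). The share thus fell over all genes too. Cox6b1 was under 2-fold with median scaling, with quantile normalisation and with an added constant, while Atp5mpl and Ndufa6 were over 2-fold with median scaling. With the mean of all probe sets Cox4i1 was under 2-fold, and Atp5g2 and Ndufaf1 were over it. A second Cox4i1 probe set read 230, 243, 217 and 180, a 1.35-fold span that also peaked at 2 h.

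**Figure D4:**
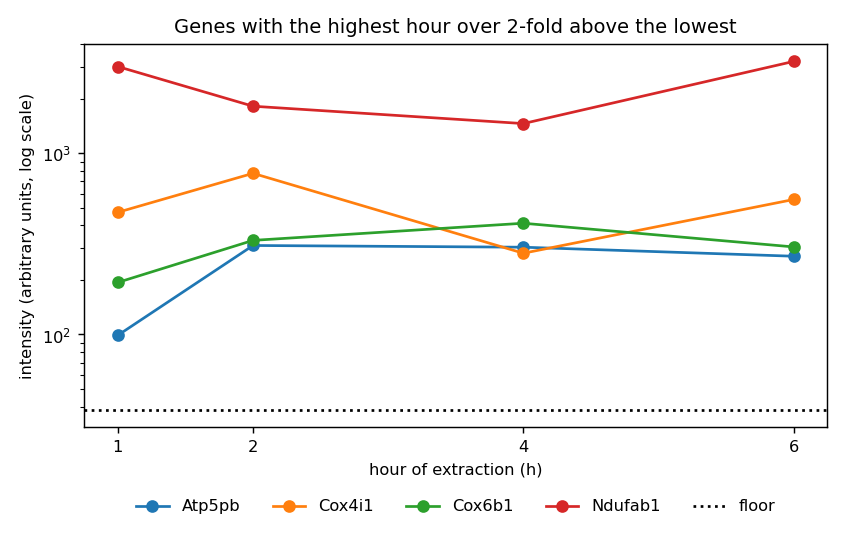
Intensity (vertical axis, log scale, arbitrary units) of Atp5pb, Cox4i1, Cox6b1 and Ndufab1 by hour of extraction (horizontal axis, h), 1 array per hour, with the floor of 38.3 dotted. Atp5pb is low at 1 h alone, Cox4i1 is lowest at 4 h, Cox6b1 is lowest at 1 h, and Ndufab1 is lower at 2 and 4 h than at 1 and 6 h.

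Complex I had 26 of its 29 subunit genes past the filter, and their median span was 1.32-fold. The lowest value fell at 4 h in 11 of the 26 and the highest at 2 h in 8 and at 4 h in 8. Among the core subunits, Ndufs1, the largest iron-sulfur subunit, had a mean of 2046 ± 145 (SD, n = 4). Ndufs3 of the ubiquinone-binding module had a mean of 3556 ± 307 and was highest at 1 h. Ndufv1, which binds NADH and the flavin, read 3824, 4065, 5309 and 3644. It was highest at 4 h, with a 1.46-fold span. Ndufv2, the partner iron-sulfur subunit of Ndufv1, read 3399, 3341, 3223 and 2924 and was lower at each step, but a second probe set (488, 369, 553 and 358) was highest at 4 h.

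Accessory subunits of complex I support assembly and stability rather than electron transfer. After Ndufab1, the widest spans were those of Ndufa6, a subunit that binds an acyl carrier protein, with 700, 529, 382 and 514, and of Ndufb7 of the membrane arm, with 2861, 4349, 5099 and 3432. They ran in opposite directions at 4 h, where Ndufa6 was lowest (1.83-fold span) and Ndufb7 highest (1.78-fold span). Ndufs4, an accessory subunit needed for a stable complex, read 162, 179, 260 and 207. The steadiest were Ndufb5, with a mean of 11053 ± 584 (SD, n = 4) and a 1.13-fold span, and Ndufv3, with 850 ± 52.9 and a 1.14-fold span. The assembly factors, which help to build the complex without staying in it, read 439, 595, 492 and 592 for Ndufaf1 and 311, 303, 234 and 275 for Ndufaf4. Both were lower at 4 h than at 2 h and 6 h. The 3 complex I genes that did not pass the filter were dim: Ndufa1 read 174, 85.1, 28.5 and 43.1, Ndufa12 30.2, 65.9, 144 and 42.3, and Ndufc2 30, 142, 42.7 and 88. Each has 1 value under the floor, and a second Ndufa1 probe set (22.2, 30.6, 73.8 and 33.3) was highest at 4 h, where the first was lowest.

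Complex II, which is also an enzyme of the tricarboxylic acid cycle, had all 4 genes past the filter and all 4 slopes below 0, against 50.1% of all genes, with none passing the test. Sdhb, the iron-sulfur subunit, read 3829, 3751, 3599 and 3552 and was lower at each step within a 1.08-fold span. Sdhc, a membrane anchor that helps to bind ubiquinone, read 2776, 2645, 2213 and 2211. Its values were also lower at each step, with a span of 1.26-fold. The other anchor, Sdhd, did not share this order and read 3502, 3417, 4056 and 2499, high at 4 h and low at 6 h (1.62-fold). The flavoprotein gene Sdha, which oxidises succinate, read 753, 535, 663 and 605 and was lowest at 2 h (1.41-fold). In the limma fit the slopes of Sdhc and Sdhd were −0.07 ± 0.05 and −0.08 ± 0.06 log2 per h (SE, n = 4), with adjusted p = 0.99993 for both.

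Complex III passes electrons from ubiquinol to cytochrome c, and all 8 of its genes were past the filter. Their median span was 1.35-fold, and 5 of the 8 were highest at 2 h. Uqcrc1, a core protein on the matrix side, read 2438, 3206, 3741 and 2094, with 2 and 4 h above 1 and 6 h and a span of 1.79-fold. Its partner Uqcrc2 ran the other way, with 7052, 5672, 6268 and 6748, lowest at 2 h (1.24-fold). Uqcr10, a small subunit of the membrane region, read 4023, 5874, 5057 and 4410 and was highest at 2 h, while the hinge protein gene Uqcrh, whose product helps cytochrome c to bind, read 4525, 4243, 3277 and 3861 and was lowest at 4 h. Uqcrq had the narrowest span of the complex, 1.21-fold. Cyc1, which carries the heme of cytochrome c1, had a mean of 11530 ± 1193 (SD, n = 4) and was highest at 2 h. Its second probe set read 2831, 4745, 7263 and 2377 and was highest at 4 h, where the first was lowest. Cycs, the somatic cytochrome c that shuttles between complexes III and IV, was among the steadier genes, with 580, 602, 549 and 549 and a 1.1-fold span.

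Complex IV had 11 of 15 genes past the filter and the widest median span of the complexes, 1.53-fold. Its genes past the filter also had the lowest median intensity of the complexes, 2109, with complex II next at 2914.5. The part of intensity in this span was not tested. Highest values fell at 2 h in 6 of the 11. The spread within the complex was wide: Cox6a1 spanned 1.1-fold, with a mean of 20538 ± 933 (SD, n = 4), as did Cox5b, a nuclear-encoded subunit on the matrix side, with 5871 ± 279. Cox6c, a small membrane subunit, read 14722, 11682, 9537 and 11101 and was highest at 1 h, and the span was 1.54-fold. Its other probe sets were near the floor and highest at 4 h (35.8, 57.2, 69.6 and 20.3, and 31.2, 22.8, 190 and 19.1). Cox7b read 3479, 2275, 2481 and 2996 and was also highest at 1 h. Cox5a, a subunit on the matrix side, did not pass the filter, with 21.1, 91.9, 112 and 53.2 by the probe set used and 37.5, 53.4, 111 and 19.2 by the other.

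Several complex IV subunits come as isoforms with tissue preferences, and the array reads some of them by separate probe sets. For subunit 6a, the muscle form Cox6a2 read 359, 583, 407 and 437 and was past the filter, beside the general form Cox6a1. For subunit 7a, the muscle form Cox7a1 read 75.4, 20.2, 18.9 and 13.9, under the floor at 2, 4 and 6 h. Cox7a2, the general form, had a mean of 7718 ± 687 and a span of 1.19-fold. Cox7a2l, which encodes a related protein, had a mean of 2109 ± 275 (SD, n = 4). For subunit 6b, the testis form Cox6b2 read 138, 131, 97.6 and 130 and did not pass the filter, and its other probe sets read 29.7, 46.5, 89.2 and 146, and 5, 18.8, 18 and 24.5.

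Subunit 8 gave readings that did not follow the tissue preferences of its isoforms. The general form Cox8a read 59.1, 14.8, 22.2 and 12.1, under the floor at all hours but 1 h. The muscle form Cox8b read 273, 473, 295 and 455 by the probe set used, and 14.2, 48, 21.9 and 32 by another. The testis form Cox8c read 1121, 999, 798 and 1078 by the probe set used, and 11, 12.8, 67.7 and 13.6 by another. For Cox8b and Cox8c, probe sets of the same gene thus lay on both sides of the filter, and the readings settle no isoform's presence. The summed intensity of the 6 muscle markers was 790, 1163, 1200 and 1017, and their part in these readings was not tested. Of them, Ckm, Myh7, Myl2 and Tnnt2 did not pass the filter, and Myl2 was under the floor at every hour. Actc1 read 229, 597, 556 and 481 and Acta1 read 245, 208, 171 and 114, and both passed it.

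**Figure D5:**
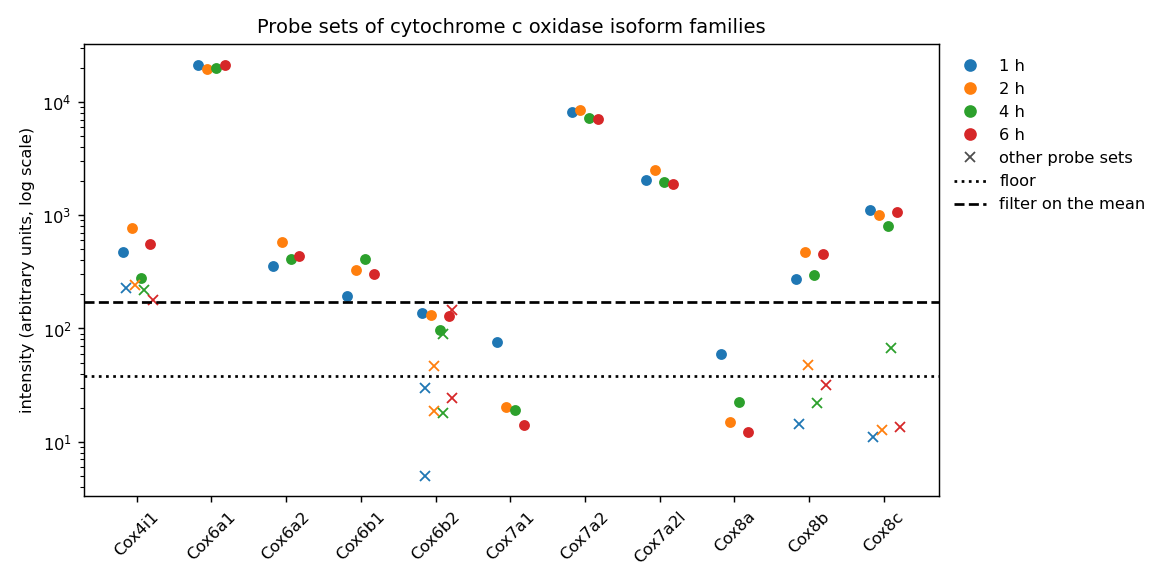
Intensity (vertical axis, log scale, arbitrary units) of each probe set for 11 genes of complex IV isoform families, coloured by hour, with circles for the probe set used and crosses for other probe sets. The dotted line is the floor of 38.3 and the dashed line the filter at 170.4; circles and crosses of Cox8b and Cox8c lie on opposite sides of the filter, and heights of different probe sets are not comparable as levels.

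ATP synthase had 13 of 14 genes past the filter and a median span of 1.25-fold. Atp5o, the stalk protein that confers oligomycin sensitivity, was the steadiest gene of the whole set, with 3301, 3394, 3369 and 3414 and a span of 1.03-fold. Atp5j, coupling factor 6 of the stalk, read 4253, 4033, 3943 and 3914 and was lower at each step, so with Ndufv2, Sdhb and Sdhc it made 4 of 65 genes with this order, against 2.4% of all genes. None of the 65 was higher at every step, against 2.65% of all genes.

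Genes of the catalytic head and the central shaft had spans between 1.11-fold for Atp5c1 and 1.54-fold for Atp5e. Atp5a1, the alpha subunit of the catalytic head, had a mean of 11218 ± 1088 (SD, n = 4) and Atp5c1, the gamma subunit of the central shaft, 6505 ± 320. Atp5e, the epsilon subunit of the shaft, read 2612, 1808, 2788 and 2597 and was low at 2 h alone. The delta subunit gene Atp5d has 5 probe sets: the brightest had a mean of 1635 ± 146 and was highest at 1 h, while the others were highest at 2 or 4 h. The membrane ring of c subunits is encoded by several genes whose products differ in the import sequence. Of these, Atp5g1 read 252, 216, 246 and 230, a 1.17-fold span, and a second probe set (103, 101, 175 and 92.7) was highest at 4 h. Atp5g2 read 522, 961, 653 and 760, highest at 2 h and lowest at 1 h with a 1.84-fold span, an order that its second probe set shared (33.4, 171, 77.4 and 117). The genes Atp5b and Atp5g3 of ATP synthase and Uqcrfs1 of complex III were not analysed here.

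The small membrane subunits of ATP synthase included wide and narrow spans. Atp5mpl, a small proteolipid of the membrane part, read 3988, 6097, 3281 and 5321, with a 1.86-fold span. Atp5k, the e subunit, which helps the enzyme to form dimers, read 566, 311, 351 and 467, with 1 and 6 h above 2 and 4 h and a 1.82-fold span. Atp5l, the g subunit, read 10721, 12460, 9806 and 9496 and was highest at 2 h, and a second probe set (163, 75, 110 and 165) was lowest there. Atp5md had a mean of 18062 ± 1096 (SD, n = 4) and a span of 1.13-fold. Atp5j2, the f subunit, did not pass the filter, with 120, 150, 170 and 104.

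Genes with the NRF1 motif did not share a highest hour. Atp5k, Ndufa6, Ndufaf4 and Sdha were highest at 1 h, and Atp5c1 and Atp5g2 at 2 h. Ndufa8, Sdhd and Uqcrc1 were highest at 4 h, and Atp5o, Cox6a1 and Ndufa5 at 6 h. The 4 genes with a window shown above are a choice that runs from steady to variable, so their spans do not bear on the motif. Of these 4, Cox6a1 spanned 1.1-fold, Sdha 1.41-fold, Sdhd 1.62-fold and Atp5g2 1.84-fold. The 12 genes with the motif had spans from 1.03 to 1.84 with a median of 1.42, and the 39 others past the filter with a promoter had spans from 1.08 to 3.13 with a median of 1.34.

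Probe sets of the same gene often gave different courses. In the set, 21 genes had several probe sets, with 28 besides those used. Of these, 6 were under the floor on all arrays, and 7 of the other 22 were highest at the same hour as the probe set used. A share of 11 of the 22 was highest at 4 h. Ndufa3 was highest at 2 h by the bright probe set (4432, 5749, 4899 and 4662) and at 6 h by a dim one (168, 277, 248 and 343). Probe sets whose identifier marks a family of similar sequences made up 20 of 101 in the set (19.8%), against 7.93% of all named probe sets. Such probe sets can take signal from related genes or pseudogenes, so the values of Cox6a1, Cox6c, Ndufa3, Atp5g2 and the brighter Cox4i1 probe set, among others, are uncertain as readings of 1 gene.

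Other genes of mitochondrial energy metabolism were described from lists by the same rules. None of their genes passed the limma trend test, and none had an unadjusted p under 0.05. Of 28 assembly and maintenance genes, 11 had a named probe set and all 11 were past the filter, with a median span of 1.44-fold and 0 past 2-fold. Surf1, a complex IV assembly factor, read 960, 1129, 845 and 1371, and Cox17, a copper chaperone, had a mean of 3104 ± 221 (SD, n = 4). In the tricarboxylic acid cycle and pyruvate dehydrogenase list 15 of 19 genes were past the filter, with a median span of 1.35-fold. There, 2 genes exceeded 2-fold: Idh2, with 426, 182, 486 and 359, and Suclg2, with 589, 798, 316 and 588. Citrate synthase (Cs) had a mean of 2308 ± 234.

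A list of mitochondrial carriers and linked enzymes held 11 genes, of which 8 had a named probe set and 6 were past the filter. All 6 past the filter were highest at 1 h, against 23.1% of all genes, and their median span was 1.28-fold. The others did not share this hour: Slc25a3 (88.8, 49.7, 57.6 and 225) was highest at 6 h and Vdac1 (24.7, 140, 21.2 and 70.1) at 2 h. The 6 were the ADP/ATP carriers Slc25a4 (13638, 12709, 13076 and 12903) and Slc25a5 (1043, 972, 920 and 913), the oxoglutarate carrier Slc25a11, the outer membrane channels Vdac2 and Vdac3 and the mitochondrial creatine kinase Ckmt1. Vdac2, with 902, 710, 514 and 735, had the widest span of the 6, 1.76-fold. At 1 h the list stood at a median of 0.27 log2 over the other hours, where the oxidative phosphorylation genes stood at 0.03. The difference between the lists was not tested. Of 11 genes of electron entry and uncoupling, 6 were past the filter with a median span of 1.48-fold, and glycerol phosphate dehydrogenase Gpd2, which feeds electrons to ubiquinone, read 2739, 2880, 2198 and 3940.

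Regulators of mitochondrial biogenesis included dim genes. Of 17 regulators, 14 had a named probe set and 8 were past the filter, with a median span of 1.54-fold and 0 past 2-fold. Ppargc1a, the coactivator PGC-1 alpha, read 152, 28.6, 51 and 160, and Tfam, which packages mitochondrial DNA and activates its transcription, read 16.2, 18.5, 92.7 and 41.1, and neither passed the filter. Gabpa, the DNA-binding subunit of the GABP factor, read 155, 152, 278 and 165 and was highest at 4 h. Esrra, a nuclear receptor that works with PGC-1 alpha, read 768, 642, 744 and 534, and Yy1 had a mean of 1089 ± 170 (SD, n = 4).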

How the data were processed

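The deposited table holds linear array intensities of 12488 probe sets, 1 value for each of the 4 samples. No source used here names the scanner, software or scaling by which the authors made it. A trimmed mean (top and bottom 2% left out) was 500.3 on each array, so values were used as deposited. Probe sets were named by the platform annotation: 10833 had 1 symbol, 396 several, 1193 none, and 66 were array controls. All 73 genes matched the RefSeq gene table by identifier. Of the probe sets with several symbols, 10 include a matching name and were left out.

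Intensities under 38.3, the 20th percentile, were raised to that floor before log2. The probe set with the highest mean stood for a gene, and genes under the 40th percentile of means were not compared. A line on the hour was tested with limma 3.58.1 under R 4.3.3 (empirical Bayes with an intensity trend, 2 residual degrees of freedom), Benjamini-Hochberg adjusted over 4951 genes at 0.05, and was tested on simulated data. Beside it, counts and medians were set next to those of all genes, without a test. Python 3.11.15 made the rest.

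Named genes are core subunits, isoform families, assembly factors, genes with the same order at every step, genes whose probe sets disagree, genes that did not pass the filter, and in each complex the 3 widest and 2 narrowest spans. Others were named after their values were seen. The members, lists and rules were chosen with earlier results of these data known. Alternatives were array median scaling, quantile normalisation, a floor at the 30th percentile, an added constant of 32, no filter, the mean of all probe sets, log2 of the hour, no intensity trend, and leaving out each sample.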

Additional observations from a re-analysis of the deposited data

Results flagged for a closer look

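In 5 of 65 genes (7.69%) 1 array stood apart from the other 3 by Dixon's criterion on log2 values, where chance would give about 1 in 20 genes, or 3.25. The same held for 282 of all 4951 genes (5.7%), so the count is near the background. Atp5pb, the peripheral stalk subunit of ATP synthase, was low at 1 h, with 99 against 310, 303 and 271. Atp5e, the epsilon subunit, was low at 2 h, with 1808 against 2612, 2788 and 2597. The complex I accessory genes Ndufb9 and Ndufc1 were both low at 4 h: Ndufb9 read 3678 against 4479, 4343 and 4449, and Ndufc1 2621 against 3986, 4069 and 3810. Ndufv3, a further accessory gene, was high at 2 h, with 929 against 829, 814 and 830. The gap made up between 0.836 and 0.88 of the range in these genes.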

How the results depend on the processing

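Genes called for a trend in the set stayed at 0 under every alternative. Over all genes limma called 13 without the 1 h sample and 3 without the 6 h sample, so leaving out 1 sample gave 0 to 13, each from a line with 1 residual degree of freedom. The median slope of the set ran from −0.032 (without the 1 h sample) to −0.008 (without the 2 h sample) when 1 sample was left out. Unadjusted limma p values under 0.05 numbered 0 in the set as deposited, against 100 of all 4951 genes. They numbered 1 without the 1 h sample (152 of all genes) and 6 without the 6 h sample (475 of all genes). With no filter they numbered 1 of 73, against 255 of all 8251 genes. Genes past 2-fold numbered 8 of 73 with no filter (11.0%, against 32.1% of all genes) and 1 to 4 when 1 sample was left out, against 7.61% to 10.7% of all genes. With each array scaled to its median, the set's median deviation was 0.1 at 1 h, −0.25 at 4 h and 0.04 at 6 h. This scaling moved all genes to 0.07, −0.17 and 0.09. It shifts every gene on an array alike, so the set's distance from all genes was as deposited by construction, which is no check of that distance. Over all alternatives that distance ran from 0.06 to 0.12 at 2 h and from −0.09 to −0.04 at 4 h, and it changed sign at 1 h. No paired analysis was possible because the samples form a single group.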

Other observations

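Between pairs of arrays, the SD of log2 differences ran from 0.26 (2 against 6 h) to 0.44 (1 against 4 h) over the 65 oxidative phosphorylation genes. Over all 4951 genes it ran from 0.43 to 0.54. The set is brighter, with a median intensity of 2797 against 597, and these SDs were not matched for intensity. The median difference from 2 h to 4 h was −0.17 log2 in the set and 0.01 over all genes, and from 2 h to 6 h it was −0.13 and 0.0. In the set, 24 of the 65 genes had a coefficient of variation under 10% over the 4 hours and 10 had one over 25%. The same counts were not made over all genes, so these describe the set alone.

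The NRF1 motif was found in 4 of 12 ATP synthase genes with a promoter entry, 3 of 26 complex I genes, 2 of 3 complex II genes, 1 of 4 complex III genes, 1 of 11 complex IV genes and 1 of 2 assembly factor genes. The ETS motif was found in 5, 3, 2, 2, 3 and 1 of them. Differences between complexes were not tested. All 5 genes with the YY1 motif belonged to complex I (3) or ATP synthase (2). These were the largest groups, with 26 and 12 of the 59 genes with a promoter entry.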
